A study of Mus musculus with 2 samples.

Results

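CpG-poor promoter regions are the stretches of open chromatin that lie at gene starts with few CpG dinucleotides. In G1E cells 1268 regions met this description, out of 10835 promoter regions (11.7%) and 25799 open regions in all. They were chosen by 2 conditions. The region lay within 1000 bp of a start site of a protein-coding gene, and the DNA around the nearest such start site, over 1000 bp, had a CpG observed to expected ratio under 0.35. That ratio sets the number of CpG dinucleotides beside the number that the C and G content of the same stretch would give. Neither condition used the strength of a region, its presence in both replicates, or its sequence beyond the CpG ratio. A region was also kept if another start site near it had a higher ratio. Of the 1268 regions, 92 (7.26%) had a start site with a ratio of 0.35 or more within 1000 bp. They include regions of Uggt2, Akr1e1, Zfp458, Tfr2, Urod, Epor and Ccnd3, which are named below.

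G1E is a mouse cell line of erythroid progenitors that carry no functional Gata1 gene, labelled as male and of strain C57BL/6J. The assay was ATAC-seq, which reads out where a transposase can reach and cut the DNA. It was run on 50000 cells in each of 2 replicates, numbered as biological replicates in the labels. Both replicates are the same untreated line, so the study holds 1 group and no second condition, and no test between groups was possible. Only peak lists were used here, so read depth is unknown. The list of replicate 1 held 21194 regions after overlapping peaks were joined and that of replicate 2 held 22620. The defining erythroid genes Klf1, Tal1, Epor, Slc4a1, Hba-a1 and Tfrc had a promoter region in both replicates. Defining genes of granulocytes and macrophages, lymphocytes, endothelium, neurons and hepatocytes had none. Cpa3 (mast cell) and Col1a1 (fibroblast) each had a promoter region, in neither case in both replicates, and 3 of 4 megakaryocyte genes had one.

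Most mammalian housekeeping genes start within CpG islands, which stay unmethylated and open in nearly all tissues. CpG-poor promoters serve mainly tissue-restricted genes, among them globins, surface receptors and olfactory receptors, and usually open only where the gene's own transcription factors are present. In blood-forming cells the GATA, ETS, RUNX and TAL1 families are known for this role. GATA1 and GATA2 bind the same short DNA string, and this line carries no functional Gata1 gene. These data do not show which protein, if any, occupied a match.

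The DNA under 13 CpG-poor promoter regions is shown first. Each line covers up to 200 bp around the point of highest signal (the summit), on the plus strand of mm10, read from the GRCm38.p6 assembly, and is shortened where annotated untranslated exons began. Capitals mark GATA matches, meaning GATA with A or T before it and A or G after it, on either strand, so that a match on the minus strand appears with TATC in its middle. The first 7 lines belong to blood-cell genes: the alpha globin gene Hba-a2, both an upstream and an intronic region of Nfe2 (an erythroid and megakaryocyte transcription factor), Uros (a heme synthesis enzyme), Gp1ba (a platelet adhesion receptor), Cd200r3 (a receptor of basophils and mast cells) and Il1rl1 (the interleukin 33 receptor).
Hba-a2, chr11:32296285-32296484: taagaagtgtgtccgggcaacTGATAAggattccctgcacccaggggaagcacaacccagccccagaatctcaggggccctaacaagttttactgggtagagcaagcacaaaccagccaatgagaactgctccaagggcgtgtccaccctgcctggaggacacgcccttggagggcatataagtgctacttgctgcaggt
Nfe2 upstream, chr15:103258411-103258610: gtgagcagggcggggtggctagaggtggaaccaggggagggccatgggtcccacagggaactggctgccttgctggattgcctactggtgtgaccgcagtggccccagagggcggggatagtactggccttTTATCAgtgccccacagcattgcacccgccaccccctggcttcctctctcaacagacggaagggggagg
Nfe2 intron, chr15:103251688-103251872: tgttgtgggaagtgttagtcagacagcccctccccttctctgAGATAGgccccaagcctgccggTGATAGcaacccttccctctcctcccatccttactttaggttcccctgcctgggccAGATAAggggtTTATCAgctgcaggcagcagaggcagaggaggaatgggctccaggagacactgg
Uros, chr7:133698071-133698270: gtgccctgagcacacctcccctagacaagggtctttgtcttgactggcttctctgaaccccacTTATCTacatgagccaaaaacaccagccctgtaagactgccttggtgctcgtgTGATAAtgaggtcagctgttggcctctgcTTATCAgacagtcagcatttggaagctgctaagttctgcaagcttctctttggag
Gp1ba, chr11:70638984-70639121: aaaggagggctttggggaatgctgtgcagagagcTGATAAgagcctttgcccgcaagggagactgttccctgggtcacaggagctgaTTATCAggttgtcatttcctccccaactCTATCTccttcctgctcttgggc
Cd200r3, chr16:44943547-44943677: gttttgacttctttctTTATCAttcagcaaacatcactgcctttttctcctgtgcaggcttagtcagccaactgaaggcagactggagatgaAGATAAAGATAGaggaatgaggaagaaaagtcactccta
Il1rl1, chr1:40429344-40429543: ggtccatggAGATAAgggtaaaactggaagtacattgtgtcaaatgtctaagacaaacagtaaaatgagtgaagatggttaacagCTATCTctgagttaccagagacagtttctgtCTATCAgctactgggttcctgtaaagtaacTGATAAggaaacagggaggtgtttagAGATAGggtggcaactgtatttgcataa
Both Hba-a2 and the upstream Nfe2 region carried 1 GATA match in these windows. The Uros, Gp1ba and Cd200r3 windows carried 3 each, the intronic Nfe2 window 4, and the Il1rl1 window 5.

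The next 3 lines are regions among those with the highest signal or the most GATA matches at genes that no blood list held. They are 2 internal regions of Cep290 (a protein of the ciliary base) and 1 intronic region of the olfactory receptor gene Olfr2.
Cep290, stronger region, chr10:100508266-100508465: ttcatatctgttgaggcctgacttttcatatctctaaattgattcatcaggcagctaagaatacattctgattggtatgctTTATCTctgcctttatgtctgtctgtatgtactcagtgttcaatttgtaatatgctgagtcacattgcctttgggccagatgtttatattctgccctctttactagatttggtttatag
Cep290, second region, chr10:100498432-100498631: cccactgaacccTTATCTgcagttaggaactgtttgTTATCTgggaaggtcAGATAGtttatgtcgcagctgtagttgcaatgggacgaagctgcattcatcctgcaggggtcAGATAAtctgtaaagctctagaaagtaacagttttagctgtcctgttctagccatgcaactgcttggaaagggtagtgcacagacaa
Olfr2, chr7:107004264-107004463: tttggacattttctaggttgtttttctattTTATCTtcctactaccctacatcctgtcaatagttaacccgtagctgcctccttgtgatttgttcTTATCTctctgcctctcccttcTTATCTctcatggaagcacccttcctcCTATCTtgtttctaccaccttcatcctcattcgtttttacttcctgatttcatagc
The last 3 lines show contrasting cases. Trim21 (a cytosolic antibody receptor and ubiquitin ligase) and Mterf2 (a mitochondrial transcription factor) had no GATA match. Clec4d (a C-type lectin receptor of myeloid cells) had 2. All 3 windows held the ETS string AGGAAG.
Trim21, chr7:102565487-102565641: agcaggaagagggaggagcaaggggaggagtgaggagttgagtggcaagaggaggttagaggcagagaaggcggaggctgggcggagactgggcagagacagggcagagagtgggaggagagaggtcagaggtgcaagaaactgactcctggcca
Mterf2, chr10:85128028-85128180: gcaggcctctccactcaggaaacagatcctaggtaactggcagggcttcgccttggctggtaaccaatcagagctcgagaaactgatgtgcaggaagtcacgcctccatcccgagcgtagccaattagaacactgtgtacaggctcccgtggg
Clec4d, chr6:123267046-123267245: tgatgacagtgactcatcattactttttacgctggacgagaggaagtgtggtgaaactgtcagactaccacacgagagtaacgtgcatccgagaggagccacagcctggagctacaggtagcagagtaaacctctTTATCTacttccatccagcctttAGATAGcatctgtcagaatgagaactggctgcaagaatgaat
Trim21, Mterf2, Nfe2 upstream, Hba-a2, Gp1ba, Cd200r3 and Il1rl1 are regions at the outermost start of the gene, and the other lines are at internal starts.

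Few CpG-poor starts were open. Of 15978 protein-coding genes with at least 1 CpG-poor start, 5.53% had a region at such a start in replicate 1 and 5.76% in replicate 2 (5.64% ± 0.164, SD, n = 2). Over either list 1079 genes did, which is 6.75% of the 15978. By comparison 49.6% ± 1.65 (SD, n = 2) of the 15195 genes with a start site of 0.35 or more had a region there, and 39.0% of all 21938 protein-coding genes had a promoter region in either list. Genes have several annotated starts, so the outermost start of each gene gives a cleaner count. Of 8062 genes whose outermost start was CpG-poor, 412 in replicate 1 and 438 in replicate 2 had a region there (5.27% ± 0.228, SD, n = 2), against 56.7% ± 1.70 of the other 13876 genes.

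Openness rose along the ratio rather than stepping at 0.35. At outermost starts with a ratio under 0.05, 1.14% of 525 genes in replicate 1 and 1.71% in replicate 2 had a region. At ratios from 0.30 to 0.35 the share was 13.2% of 798 genes in both replicates, and from 0.35 to 0.40 it was 17.1% of 720 genes in both. The highest shares, 69.8% and 72.9%, were at ratios from 0.9 to 1. Nothing in these shares marks 0.35 as a border.

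**Figure D1:**
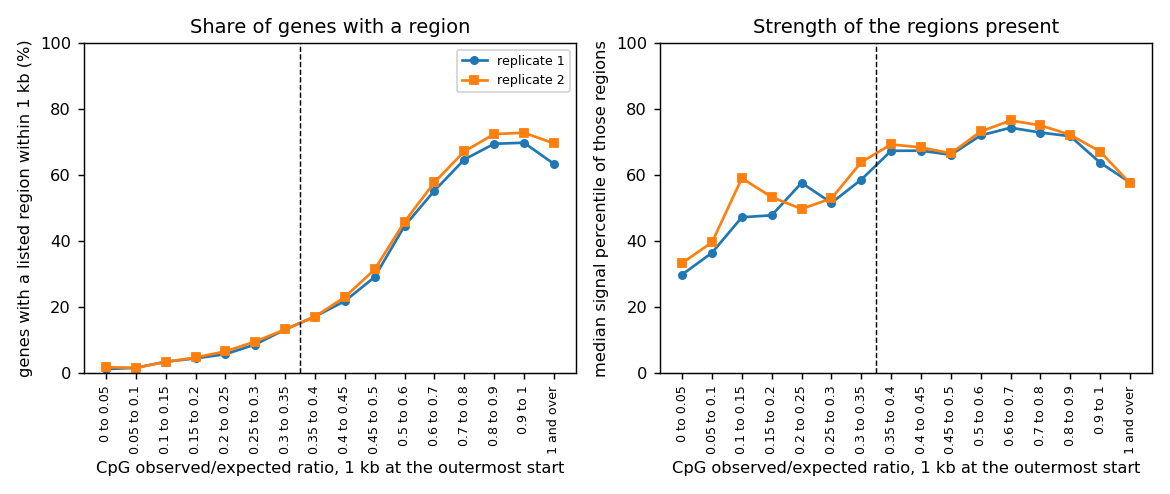
Left, the percentage of protein-coding genes with a listed region within 1 kb of their outermost start, by the CpG observed to expected ratio there; right, the median signal percentile of those regions. Each line is 1 replicate and the dashed line marks 0.35; the share of open genes climbs from under 2% in the lowest bins to about 70% near a ratio of 1, and the replicates' shares follow the same course.

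The members that lay just inside and just outside the threshold were alike in having strong and weak regions on both sides. Inside were Gm2174 on chromosome X (ratio 0.349, signal 13.0 in replicate 1 and 10.5 in replicate 2), St3gal6 on chromosome 16 (a sialyltransferase, listed in replicate 2 with a signal of 5.59) and Arhgef2 on chromosome 3 (a guanine nucleotide exchange factor, listed in replicate 1 with a signal of 7.37). Outside were Slc40a1 (the iron exporter ferroportin, signals 12.5 and 12.5), Ubp1 (a transcription factor, signals 14.7 and 18.1) and Pim1 (a kinase, listed in replicate 2 with a signal of 4.08).

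The regions that were open sat mostly inside genes. Only 334 of the 1268 (26.3%) had the outermost start of their gene as nearest start, against 64.7% of the 9567 other promoter regions. The other 934 lay at internal starts, 404 of them at the start of a protein-coding transcript and 530 at the start of another transcript type, such as a retained intron. By the position of the summit, 707 (55.8%) were in introns, 230 (18.1%) outside genes, 181 (14.3%) in untranslated exons and 150 (11.8%) in other exons. A start site was covered by 637 of them (50.2%), against 81.9% of the other promoter regions, and the summit lay a median of 219 bp from it, against 70 bp. A start of a gene on the opposite strand was near in 1.10% of CpG-poor promoter regions and in 13.9% of the others. Whether transcription began at these internal starts in G1E cells was not measured.

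CpG-poor promoter regions were weaker than other promoter regions and close to distal regions in strength. Signal is given as the deposited peak value, and, because it is not scaled between replicates, also as a percentile of the replicate's own list. The median percentile was 41.2 in replicate 1 and 42.8 in replicate 2 (42.0 ± 1.17, SD, n = 2). For the 1176 regions with no start site at or over the ratio threshold nearby, the medians were 40.8 and 42.8. For the 92 regions with such a start site they were 49.5 and 45.2. Other promoter regions had medians of 64.8 and 65.4, and the 13952 distal regions, over 1000 bp from any gene start, had 41.9 and 41.6. The gap of over 20 percentile points to other promoter regions was many times the difference between replicates, while the gap to distal regions was not. Median signal was 7.37 and 8.15 for CpG-poor promoter regions, with a range of 2.78 to 24.0 in replicate 1 and 2.97 to 25.6 in replicate 2, and 9.74 and 10.7 for other promoter regions. The regions were also narrower, with a median width of 403 and 400 bp against 470 and 483 bp.

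Few were among the strongest regions. In replicate 1, 59 CpG-poor promoter regions (5.86%) were in the top 10% of the list by signal, against 16.3% of all promoter regions, and in replicate 2 it was 73 (6.88%) against 16.5%. Regions at outermost starts were somewhat stronger, with medians of 47.3 and 44.6, than those at internal starts, with 39.8 and 41.1. The 637 that covered their start site had medians of 50.3 and 48.4.

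**Figure D2:**
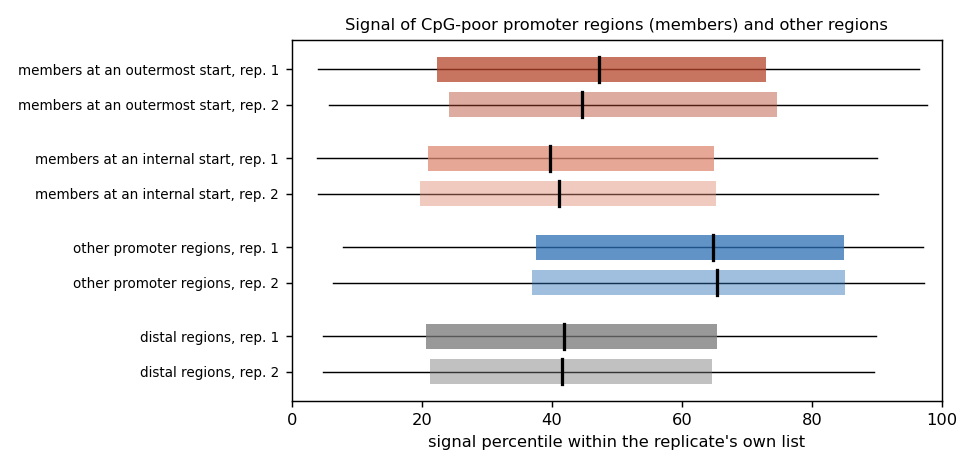
Signal percentile within each replicate's own list for CpG-poor promoter regions (members) at outermost and internal starts, other promoter regions and distal regions; bars span the 25th to 75th percentile of the regions, black ticks are medians and thin lines run from the 5th to the 95th. The members' medians lie between 39.8 and 47.3, near the distal regions and below the other promoter regions at 64.8 and 65.4.

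They were also shared less often by the replicates. Of the 1268, 800 were listed in both (63.1%, 95% Wilson interval 60.4% to 65.7%), against 80.9% (80.1% to 81.7%) of other promoter regions, 78.8% of all promoter regions and 59.0% of distal regions. The intervals cover counting error only. Replicate 1 alone listed 207 and replicate 2 alone 261. Of the 207, 136 (65.7%) were in the more lenient list of replicate 2, and of the 261, 130 (49.8%) were in that of replicate 1. Their signal was lower too, as given above, and its part in the lower share was not tested.

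The strongest CpG-poor promoter regions stood among the strongest regions of the whole list. Gm20594, a predicted gene on chromosome 6, had a signal of 24.0 in replicate 1 and 25.3 in replicate 2, and Trim21 had 21.6 and 25.6. Zfp950, a zinc finger gene, had 20.8 and 23.1, and Uggt2, a sensor of glycoprotein folding, had 20.9 and 22.1. Mterf2 had 20.6 and 21.7, and Akr1e1, an aldo-keto reductase, had 19.4 and 21.1. All 6 were above the 99th percentile in both replicates. The rest of the strongest 15 were Cep290 (20.6 and 20.1), Zfand4, Heatr1 (a factor of ribosome assembly), Trim12c, Gm15446, Gm45871, Plscr2 (a phospholipid scramblase), Zfp458 and Gm14401, with signals from 16.5 to 23.2. Of these 15, Uggt2, Akr1e1 and Zfp458 were among the 92 regions that also had a start site at or over the ratio threshold nearby. Whether their signal belonged to that start site was not tested. None of the 15 genes was in a blood list, 9 of them were at the outermost start, and 5 carried a GATA match. Some of these genes have near-identical copies elsewhere in the genome, among them the Trim and zinc finger clusters, and how reads that match several places were treated is not given in the sources used here, so these signals are uncertain. Whether the Gm20594 sequence has copies elsewhere, mitochondrial DNA included, was not examined, so its rank is uncertain as well. Olfr2 (17.6 and 17.7) and the second Cep290 region (16.1 and 17.5) were also above the 95th percentile in both replicates. The Olfr2 region lay in an intron, 947 bp from an internal start, with its summit 1330 bp downstream of that start. At the lower end, a region of Glrx5 (a mitochondrial protein of iron-sulphur cluster assembly) had signals of 3.29 and 3.26.

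Genes of the red cell had the largest shares of open CpG-poor starts among the 15 lists examined. Every share below is of the list's genes with a CpG-poor start and is read against 6.75% for all protein-coding genes with such a start. Heme and hemoglobin genes stood at 11 of 19 (57.9%) and erythroid transcription factors at 10 of 22 (45.5%). Red cell membrane and surface genes stood at 12 of 30 (40%, and 36.7% in each replicate alone). Megakaryocyte and platelet genes stood at 8 of 31 (25.8%), mast cell and basophil genes at 7 of 30 (23.3%) and cytokine receptor genes at 8 of 37 (21.6%). Lymphoid genes followed at 12 of 61 (19.7%), granulocyte and macrophage genes at 9 of 61 (14.8%) and stem cell genes at 2 of 14. Among cell cycle genes 2 of 13 had such a region, Ccnd3 and Cdk1. Endothelial (14 genes), fibroblast (17), hepatocyte (18), neuron (12) and ribosomal protein genes (10) had none. The lists were drawn up with earlier results of these data known, so the shares are descriptions.

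**Figure D3:**
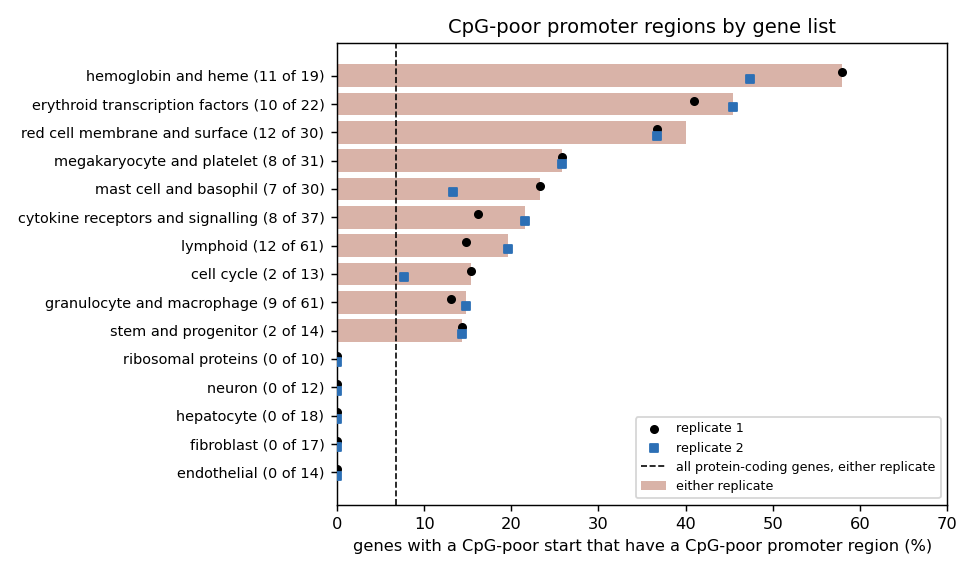
Percentage of the genes with a CpG-poor start in each list that had a CpG-poor promoter region. Bars count either replicate, points count 1 replicate, and the numbers after each name are the genes counted. The dashed line is the 6.75% of all protein-coding genes with a CpG-poor start. The 3 red cell lists lie farthest right, led by heme and hemoglobin genes at 57.9%, and 5 lists hold none.

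At outermost CpG-poor starts alone, the order of the lists shifted. Here a gene counts only if the outermost start is the start nearest to the region, which is stricter than the count of any region within 1000 bp given above (412 and 438 genes). Erythroid transcription factors had a region at 6 of 8 such genes, red cell membrane genes at 7 of 17 and heme and hemoglobin genes at 4 of 11, against 314 of 8062 (3.89%) over all genes by the same rule. Granulocyte and macrophage genes had one at 2 of 57, which is 3.51% and no higher than over all genes. That list's regions were thus mostly at internal starts.

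Among heme and hemoglobin genes, the alpha globins led. The region at Hba-a2 (chr11:32296157-32296723, outside the gene, with the summit 104 bp upstream of the start) had a signal of 13.1 in replicate 1 and 17.5 in replicate 2. That of Hba-a1 (chr11:32283221-32283798, with the summit in the untranslated exon) had 11.8 and 11.4. Both were above the 70th percentile in both lists, but these 2 genes are near-identical copies and reads cannot be assigned to 1 of them with confidence. The beta globin gene Hbb-bs was listed in replicate 1 only, with a signal of 5.35. Tfr2, a sensor of iron-loaded transferrin, had 11.6 and 10.8 at an internal start in an untranslated exon, and Uros had 10.1 and 10.8. Steap3, which reduces iron after its uptake, had 9.20 and 9.90, and Fech, which inserts iron into heme, had 8.08 and 10.2. Of the list's 12 regions, 9 were in both replicates and 9 carried a GATA match, which 52.3% of all CpG-poor promoter regions did. Their median percentile was 52.2 against 35.5 for all CpG-poor promoter regions, counting each by its mean over the replicates that listed it. Urod, Cpox and Slc25a38, further genes of heme synthesis, also had regions.

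Membrane and surface genes of the red cell were of like strength, with a median percentile of 51.5 over 15 regions, 13 of them in both replicates. Tmcc2, a coiled-coil protein of the endoplasmic reticulum, had 14.8 and 15.4 at an internal start. Car1, a carbonic anhydrase, had 13.4 and 13.2 at its outermost start, where no GATA match lay in the 200 bp around the summit. Trim10, an erythroid RING finger protein, had 10.2 and 15.7, the widest difference in signal among the red cell membrane regions named here. Epb42 (protein 4.2), which ties band 3 to the skeleton, had 9.43 and 12.2. Ank1, an ankyrin that links membrane proteins to the skeleton, had 8.46 and 11.2 in an intron, 368 bp from an internal start. The 200 bp around the Ank1 summit are made of similar stretches repeated in a row. Whether they have copies elsewhere in the genome was not examined, so this signal is uncertain. Ank1 also counts in this list's share of genes above. Slc4a1, the band 3 anion exchanger itself, had 8.35 and 8.41 at an internal start with 2 GATA matches.

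Erythroid transcription factors were frequent by count but weak by signal, with a median percentile of 23.4 over 15 regions. Upstream Nfe2 and Tcf3 were well above that median. Nfe2 had 13.7 and 15.7 upstream (chr15:103258211-103258804) and 6.60 and 7.59 in its intron (chr15:103251616-103252133), where 4 GATA matches lay. One more Nfe2 region was listed in replicate 1 only, at 4.30. Tcf3, a TAL1 partner, had 11.4 and 14.9. Lmo2, which bridges GATA and TAL1 factors, had 6.30 and 6.48 in a region with 3 GATA matches and a second region in replicate 1 only at 6.48. Gfi1b, a repressor, had 5.30 and 8.22, and Sox6, which silences embryonic globin, had 5.96 and 6.92. Klf1, the main activator of adult beta globin, had 6.31 and 6.11 at its outermost start. Gata1, the gene disrupted in this line, kept 3 listed regions at internal starts with signals of at most 5.93, and 1 of the 3 was in replicate 2 only. A region shows that the DNA was accessible and not whether a protein was made.

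Il1rl1 led the cytokine receptor list. Its outermost start (chr1:40429013-40429670) had 10.1 in replicate 1 and 13.0 in replicate 2, and an internal start had 8.70 and 8.78. Csf2rb2 and Csf2rb, 2 related beta chains of the interleukin 3 receptor family, had 7.32 and 8.35, and 6.18 and 6.76. Il4 had 7.06 and 8.41, and Tnfrsf9, a receptor of activated lymphocytes, had 6.41 and 7.21 with 3 GATA matches. Epor, the erythropoietin receptor, was a member in replicate 2 only, at 5.46. Of the list's 9 regions, 8 carried a GATA match, against 52.3% of all CpG-poor promoter regions.

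In the megakaryocyte list 10 of 13 regions carried a GATA match, read against the same 52.3%. Nbeal2, needed for platelet alpha granules, had 10.6 and 12.6, and Gp1ba had 10.7 and 10.9. P2rx1, an ATP-gated channel of platelets, had 7.60 and 11.3, and Itga2b (integrin alpha IIb) had 8.30 and 8.35. Fermt3 (kindlin 3) had 7.46 and 7.34 in its strongest region, and Gp5, a partner of Gp1ba, had 5.91 and 7.05 with 3 GATA matches. All 9 regions in the mast cell and basophil list carried a GATA match, and 6 were in both replicates. The 9 include a region at Siglech, in replicate 1 only at 5.13, whose place among mast cell genes was not checked. Siglech also counts in this list's share of genes above. The list shares 3 of its regions, 2 of Il1rl1 and 1 of Csf2rb, with the cytokine receptor list. Cd200r3 had 12.6 in each replicate, Mcpt9, a mast cell protease, had 7.65 and 10.03, and Cpa3 and Hdc (histidine decarboxylase) were listed in replicate 1 only, at 5.58 and 5.62.

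Genes named for other white cells were present with different letters under them. In the lymphoid list Traf3ip3 had 12.6 and 16.3, the phosphatase gene Ptpn6 had 11.8 and 16.5, and Cd37 had 8.59 and 13.9. Selplg (the selectin ligand PSGL-1) had 11.2 and 9.87, Was had 6.84 and 11.0, and Vav1 had 7.45 and 8.76. Many of these genes are used across blood cells, and the defining lymphoid genes Cd3e, Rag1 and Cd79a had no promoter region. In the granulocyte and macrophage list Clec4d had 16.3 and 12.8, Spi1 (which encodes PU.1) had 11.6 and 12.2 in an intron and 10.5 and 11.1 in an untranslated exon, and Treml2 had 11.1 and 10.1 in its strongest region. Of the 31 regions of these lists, 10 carried a GATA match (32.3%), 26 the ETS string AGGAAG (83.9%) and 8 the PU.1 string GAGGAAGT (25.8%). Of the 42 regions of the red cell lists, 31 carried a GATA match (73.8%), 11 the ETS string (26.2%) and none the PU.1 string. Over all 1268 CpG-poor promoter regions the shares were 52.3% (GATA), 41.1% (ETS) and 7.49% (PU.1). This contrast was noticed after the values had been seen and was not tested.

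Large gene families known from other tissues were nearly closed. Of 1461 olfactory and vomeronasal receptor genes with a CpG-poor start 17 had a region (1.16%), of 89 cytochrome P450 genes 1, and of 88 keratin and 63 defensin genes none. Over all genes with a CpG-poor start the share was 6.75%. Zinc finger genes with symbols beginning in Zfp had 23 of 238 (9.66%), with 21 of their 24 regions in both replicates and a median percentile of 56.3. That family was picked out after its members had appeared among the strongest regions.

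At some genes several regions lay together. Of the 1079 genes, 156 had more than 1 CpG-poor promoter region. The 1268 regions lay at 1079 genes and the 9567 other promoter regions at 7981 genes, so the number per gene was much alike. Adgrg1, an adhesion receptor, had the most, 5, of which 1 was in both replicates (signals 11.4 and 11.9). Rac2, a GTPase of blood cells, had 4, and 3 of these were in both, at 8.72 and 9.33, 7.19 and 7.99, and 7.29 and 6.27. Regions of 1 gene share their neighbourhood and are not independent.

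GATA strings were the most frequent of the 18 motifs searched in CpG-poor promoter regions, by 52.3% to 50.8% for the TAL1 E-box (CAGNTG). That order did not hold in every subset. In regions covering the start site the E-box was at 50.5% and GATA at 49.0%. At outermost starts the ETS string was at 49.4%, the E-box at 44.3% and GATA at 43.4%. A GATA match in the 200 bp around the summit was present in 55.9% of the CpG-poor promoter regions in replicate 1 and in 52.8% in replicate 2 (54.3% ± 2.21, SD, n = 2), against 12.5% ± 0.00723 of other promoter regions. With the replicates joined it was 663 of 1268 (52.3%), against 17.4% of all promoter regions, 61.4% of distal regions and 42.1% of all regions. Base composition differs between these sets, with a median GC content of 52.5% in CpG-poor and 63% in other promoter regions, and an AT-rich string is more frequent in AT-rich DNA. Of 2446 windows 2000 bp to either side of the same summits, 28.9% held a GATA match, and around other promoter regions 31.6% did. The same letters read backwards, which keep the composition (a string chosen after seeing the data), were present in 21.5% of CpG-poor promoter regions, in 25.1% of the windows 2000 bp away and in 10.3% of other promoter regions. The GATA string was thus more frequent than its reverse under the summits by 52.3% to 21.5%, and less so 2000 bp away, by 28.9% to 25.1%.

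GATA matches were concentrated at the summit. Within 50 bp of it there were 12.2 matches per 100 regions in each 25 bp, against 4.53 at 400 to 500 bp, a ratio of 2.69. Distal regions gave a ratio of 2.91 and other promoter regions 0.749. Of the 1268 regions, 396 had 1 match, 182 had 2 and 85 (6.70%) had 3 or more, whereas 0.355% of other promoter regions had 3 or more.

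**Figure D4:**
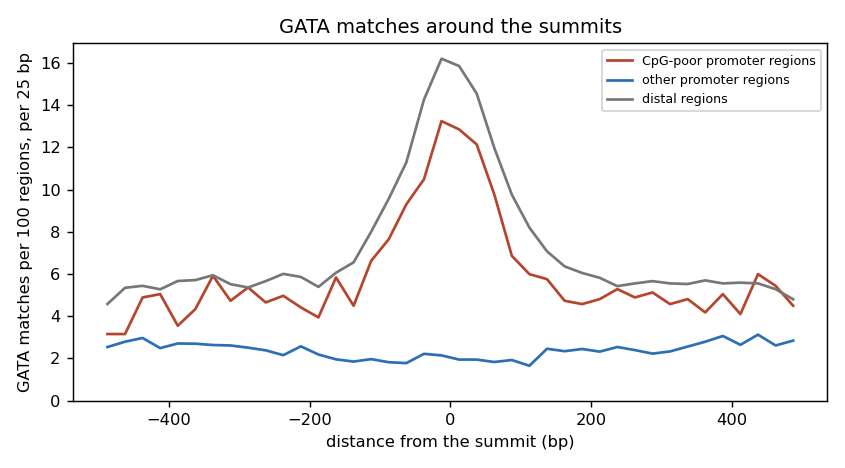
GATA matches per 100 regions in bins of 25 bp, by distance from the summit, for CpG-poor promoter regions, other promoter regions and distal regions. The first and the last rise to a peak at the summit, 2.69 and 2.91 times their level at 400 to 500 bp, and other promoter regions dip slightly there, to 0.749 times.

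At internal starts, regions with a GATA match were in both replicates more often than those without. There 69.7% of 518 regions with a match were in both replicates, with median percentiles of 44.7 and 46.5, against 51.0% of 416 without, with 35.9 and 33.9. At outermost starts the difference was small and turned in strength, with 70.3% of 145 regions with a match in both replicates (medians 41.9 and 44.5) against 66.1% of 189 without (50.1 and 45.1). A GATA match was present in 55.5% of regions at internal starts and 43.4% at outermost starts, and the ETS string in 38.1% and 49.4%.

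Other blood-cell motifs were likewise more frequent than in other promoter regions and than 2000 bp away. The ETS string was in 41.1% of CpG-poor promoter regions, 24.4% of other promoter regions and 22.5% of the windows 2000 bp away. The RUNX string TGTGGT was in 20.9%, 7.95% and 15.9%, the AP-1 string TGANTCA in 11.3%, 3.20% and 5.85%, and the PU.1 string, every match of which is also an ETS match, in 7.49%, 2.26% and 0.86%. The TAL1 E-box CAGNTG was in 50.8%, against 42.2% in the windows 2000 bp away, so it was common in any DNA of this kind. Over all promoter regions these strings were in 26.4% (ETS), 9.47% (RUNX), 4.14% (AP-1), 2.87% (PU.1) and 31.5% (E-box).

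Several other strings were less frequent in CpG-poor than in other promoter regions. The SP1 GC box CCGCCC was in 15.8% of CpG-poor and 59.97% of other promoter regions, the CpG-holding ETS string CCGGAA in 5.36% and 27.6%, the CRE core string TGACGT in 3.47% and 11.6%, and the NFY string CCAAT in 26.1% and 36.8%. The first 3 hold a CpG, so the rule on CpG content bears on them directly. The KLF string CCNCNCCC was in 39.3% and 60.9%. All 5 strings were more frequent in CpG-poor promoter regions than in the windows 2000 bp away. There the shares were 3.84% (SP1 GC box), 1.88% (CCGGAA), 1.88% (TGACGT), 22.7% (NFY) and 17.0% (KLF). By contrast the TATA string TATAAA was in 5.52% of CpG-poor and 2.58% of other promoter regions, but in 12.9% of the windows 2000 bp away. The MYB (AACNGNC), STAT (TTCNNNGAA), CEBP (TTGCNNAA) and IRF (GAAA at both ends with 2 bases between) strings differed between CpG-poor and other promoter regions by under 6 percentage points each. The same held for the CTCF (CC followed by AGGGGG after 3 bases) and MEF2 (CTA and TAG 4 bases apart) strings, and for the TATA and PU.1 strings above. Matches in 200 bp are descriptions of letters and not of binding.

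**Figure D5:**
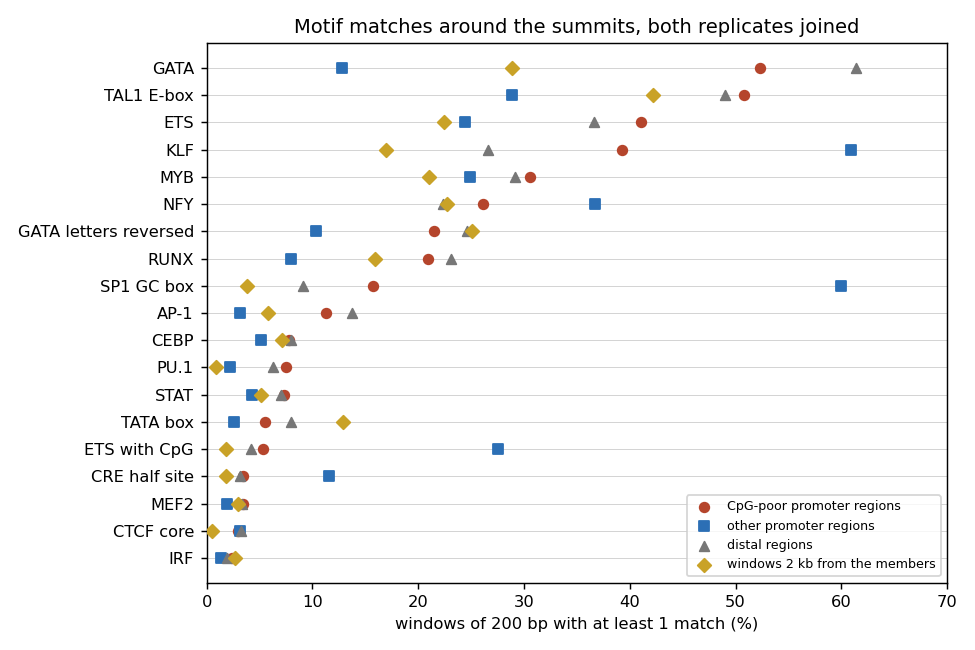
Percentage of 200-bp windows with at least 1 match of each motif, for CpG-poor promoter regions, other promoter regions, distal regions and windows 2 kb from the summits of the CpG-poor promoter regions, with both replicates joined. For GATA, ETS, RUNX, AP-1 and PU.1 the CpG-poor promoter regions lie near the distal regions, and for the SP1 GC box and the CpG-holding ETS string other promoter regions lie far to the right.

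Having a GATA string near the start did not separate open from closed CpG-poor starts over the wider window. Of the 355 CpG-poor outermost starts with a region in both replicates, 80.8% had a GATA match in the 1000 bp around the start, against 83.5% of the 7331 starts in no list. In the 200 bp around the start the shares were 34.6% and 29.1%, and 26.0% once olfactory and vomeronasal receptor genes were left out of the closed starts. The GATA letters read backwards were at 69.0% of these open starts and 77.1% of the closed ones in 1000 bp. In 200 bp they were at 19.2% and 25.1% (22.5% without those receptor genes). In both windows the GATA string exceeded its reverse by more at open starts, a difference that was not tested. The ETS string in 200 bp was at 43.1% and 30.2% (31.9% without those receptor genes). Shares of the KLF string were 34.9% and 22.9% (27.4%), and of the PU.1 string 5.35% and 3.23% (2.98%). The RUNX string was at 15.8% and 15.7% (16.5%), the AP-1 string at 5.92% and 6.64% (6.54%) and the TAL1 E-box at 45.6% and 47.3% (49.8%), so the AP-1 string and the E-box were less frequent at open starts and the RUNX string was about equal. A TATA string from 40 to 19 bp upstream was present at 2.54% of the open starts and 4.94% of the closed ones. Open starts had a higher GC content over 1000 bp, 49.9% against 45.1%, and its part in these differences was not tested.

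CpG-poor promoter regions had more distal open regions near them. With only distal regions shared by the replicates counted, and a reach of 50 kb to either side, 62.7% of the CpG-poor promoter regions had at least 1, against 48.3% of other promoter regions and 21.8% of all CpG-poor outermost starts. The share was 57.8% for regions at outermost starts and 64.5% for those at internal starts.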

How the data were processed

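ATAC-seq peak lists of 2 replicates of the G1E line were used. Peaks were called for each replicate apart and thresholded by the irreproducible discovery rate, on mm10, per the file headers; the sources used here do not give the peak caller, its settings or the handling of reads with several matches. Each deposited peak carries a signal value and a −log10 p-value made by the authors. The authors' more lenient lists served as an alternative, and read depth is unknown.

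Overlapping peaks were merged in each replicate (26083 and 27810 peaks to 21194 and 22620 regions) and joined over replicates. Each region took the nearest start of any transcript of the 21938 protein-coding genes of GENCODE M21, and sequence came from GRCm38.p6. Distal regions lay over 1000 bp from the starts of all genes. Motifs were exact strings on either strand. With 1 group no test was run: values are means ± SD over replicates, medians, and shares with 95% Wilson intervals. Python 3.11.15, numpy 2.4.6, pandas 2.3.3 and scipy 1.17.1 were used, and the merging, ratio and motif code was tested on simulated data. Named genes were the strongest 15 in both replicates, the strongest 6 of each list, the 3 on either side of the threshold, the 5 with the most GATA matches and defining markers; other names were chosen after their values were seen. Members and lists were chosen with earlier results of these data known. Alternatives changed the lists, strength, ratio, window, distance, starts and replicates. A few named genes are not reported here.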

Additional observations from a re-analysis of the deposited data

How the results depend on the processing

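CpG-poor promoter regions were below other promoter regions in all 13 alternatives for the share of genes with a region, in all 13 for the median percentile and in all 12 for the share in both replicates, and above them in all 15 for the GATA share. The GATA string read backwards, a control of base composition, was also more frequent in them (21.4% against 10.4%). The sizes moved, and beyond what each alternative changes by its construction the cause was not tested. The count, 1268 as reported, is given for each alternative that can change it. Where moved, the share of genes (5.64%), median percentile (42.0), share in both replicates (63.1%) and GATA share (54.3%) follow in this order. The more lenient lists gave 2194, 9.03%, 49.9, 55.5% and 47.8%. The stronger 50% of regions gave 511, 2.56%, 72.1, 67.1% and 59.3%. A ratio under 0.25 gave 781 regions, 4.32% of genes and GATA in 60.1%. A ratio under 0.45 gave 1709 regions, 7.11% of genes, a percentile of 44.7 and GATA in 48.0%. A ratio over 500 bp gave 1195 regions and 5.44% of genes. Over 2 kb it gave 1499 regions, 6.55% of genes, a percentile of 44.97, 65.8% in both and GATA in 49.5%. A distance within 500 bp gave 958 regions, 4.59% of genes, a percentile of 44.6 and 66.9% in both. Regions covering the start gave 637, 3.33%, 49.3, 75.2% and 49.9%. Only outermost starts gave 521, 4.97%, 46.0, 70.1% and 39.9%. For GATA, a window of 100 bp gave 37.7% and the whole joined region 64.1%. Without 1 replicate the values ran from 1013 to 1058, from 5.49% to 5.72%, from 40.6 to 42.5 and from 52.8% to 55.7%. The alternatives added after seeing the data were the nearest start by summit, starts of protein-coding transcripts only, and the GATA string read backwards. The nearest start by summit gave 1153 regions and 5.19% of genes. Starts of protein-coding transcripts only gave 825, 5.21%, 66.3% in both and GATA in 49.4%. No paired analysis was possible because the study has 1 group. The absence of a region from these thresholded lists does not show that a start was closed, and with 2 replicates and depth unknown, differences close to the gap between the replicates cannot be resolved.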
